A study of Mus musculus with 6 samples.

Results

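A small number of 50 bp windows of the mouse genome collected about as many reads of captured DNA as all other windows combined. This was seen in naive microglia and in microglia taken at the height of experimental autoimmune encephalomyelitis (EAE). The windows described here are those with over 2000 reads summed over the 4 DNA libraries, and 474 of the 2915907 windows with any read met that rule (0.0163%). They cover 23.7 kb and held 73088786 of 146181828 window reads (49.9985%). Because the windows were chosen by their read numbers in these same libraries, their height is a description and was not tested.

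Microglia are the resident macrophages of the brain and spinal cord, and EAE is a model of multiple sclerosis. The cells came from Ccr2rfp/+::Cx3cr1gfp/+ mice on the C57Bl/6 background, in which 1 copy of the monocyte chemokine receptor gene Ccr2 and 1 copy of the microglial receptor gene Cx3cr1 carry a red and a green reporter, in naive and diseased mice alike. Naive mice were sampled before induction. Peak mice had been immunised at 24 to 28 weeks of age with residues 35-55 of myelin oligodendrocyte glycoprotein (MOG) and were taken once the daily clinical score had stopped rising. Cells of 30 mice were pooled per condition and sorted on F4/80 and CD45. DNA was assayed by MiGS (MBD-isolated Genome Sequencing) in 2 libraries per condition, which the design text calls biological replicates without saying how the pooled mice were divided between them, and RNA was sequenced in 1 library per condition. The p-values below therefore measure the spread between these libraries, which may be partly technical.

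In MiGS a methyl-CpG binding domain (MBD) protein pulls down DNA fragments that carry methylated CG dinucleotides, so the read number of a window follows both its methylation and the amount of its DNA in the nucleus. No library made without the pull-down is among the samples, so these terms cannot be told apart here. Tandem repeats complicate the second term, the amount of DNA. Mouse centromeres are flanked by long arrays of satellite DNA, a short unit repeated many times and heavily methylated in most tissues. The genes for ribosomal RNA (rRNA) also lie in long tandem arrays of which some copies are methylated and silent. Most copies of both are left out of a reference assembly, so reads from an entire array can pile up on the few copies that were assembled. Nuclear pieces of mitochondrial DNA can collect organelle reads in the same way. The chromosome 2 region described below is known from many mouse sequencing experiments as a place of very high signal in many kinds of assay.

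The sequences of the pile-up windows themselves were not read here. Promoter sequence could be set beside the reads at 2 clusters with a RefSeq promoter within 2000 bp, on chromosomes 13 and 1. At the chromosome 1 cluster the Brox promoter (chr1:183297244-183297543), 1807 bp away and with 23 CG dinucleotides, had 0 reads in every library. The chromosome 13 promoters had reads, and those of Tmem267 are printed here. Tmem267, which encodes a transmembrane protein, has 2 annotated promoters there (RefSeq, build GRCm38.p6, which is the assembly called mm10). They are shown because the 2 differ in CG content and in captured reads, with every CG in capitals, 5′ to 3′ on the plus strand. The upstream promoter lies at chr13:119487836-119488135 and the downstream promoter at chr13:119488223-119488522.
Tmem267 upstream: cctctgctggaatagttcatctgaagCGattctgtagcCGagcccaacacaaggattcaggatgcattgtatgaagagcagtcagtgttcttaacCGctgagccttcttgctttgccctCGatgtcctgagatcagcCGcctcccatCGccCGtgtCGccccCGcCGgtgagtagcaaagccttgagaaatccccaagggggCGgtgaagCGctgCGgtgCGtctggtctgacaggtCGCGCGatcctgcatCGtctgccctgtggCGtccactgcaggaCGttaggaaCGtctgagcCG
Tmem267 downstream: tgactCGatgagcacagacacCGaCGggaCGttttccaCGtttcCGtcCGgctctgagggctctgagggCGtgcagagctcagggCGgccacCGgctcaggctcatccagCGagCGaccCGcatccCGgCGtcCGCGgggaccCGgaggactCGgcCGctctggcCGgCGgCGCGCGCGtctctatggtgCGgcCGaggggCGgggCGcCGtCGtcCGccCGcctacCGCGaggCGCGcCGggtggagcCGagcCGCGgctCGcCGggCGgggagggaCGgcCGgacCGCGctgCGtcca

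The upstream promoter holds 22 CG dinucleotides and the downstream promoter 50. Searched as the letters CG, which read the same on both strands, 94.8% of the 31396 autosomal promoters of this length in the table hold at least 1, with a median of 7. The upstream sequence collected 100 and 191 reads in the naive libraries and 27 and 71 in the peak libraries. The downstream sequence collected 170 and 5675 reads in the naive libraries and 83 and 1906 in the peak libraries, so naive replicate 2 and peak replicate 2 were high and the other libraries low. Its highest window had 1697 reads, under the threshold of 2000. The downstream promoter and the overlapping promoter of the long non-coding RNA 3110070M22Rik, on the other strand, were the only 2 of 31396 promoters with a window that high. No promoter in the table holds a pile-up window. Of the 276 promoters with at least 50 CG dinucleotides, 93.1% had no reads at all. The downstream Tmem267 promoter was picked for lying beside a pile-up cluster. Its high reads against promoters of like CG content therefore follow partly from that choice.

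The 4 libraries differed in the share of reads that fell into the 474 windows, and the difference did not follow disease. Reads were recovered from the deposited values, each of which is a read number over the library's own size factor, and the deposited values are called scaled reads below. The share was 55.0% in naive replicate 1 and 43.5% in naive replicate 2, against 56.2% in peak replicate 1 and 44.7% in peak replicate 2. Within each condition replicate 1 was the higher. The mean was 49.2% ± 8.13 (SD, n = 2) in naive and 50.5% ± 8.14 (SD, n = 2) in peak cells, a difference of 1.24 percentage points with overlapping groups (two-sided exact permutation p = 0.667; with 2 libraries against 2 the smallest possible p is 0.333). The libraries held between 30424742 and 43970332 window reads, and between 13700660 and 20633033 outside the pile-ups. Neighbouring windows count the same fragments, so these are not numbers of fragments.

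**Figure D1:**
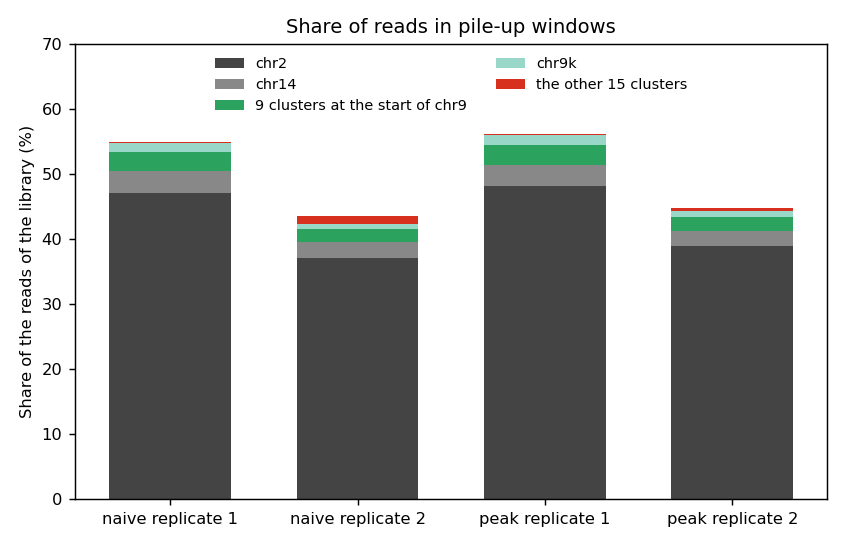
Share of each MiGS library's window reads (%, vertical axis) that fell into the pile-up windows, stacked by cluster or group of clusters, 1 bar per library. The chromosome 2 cluster is the main part of every bar, and replicate 1 of each condition has the higher bar (55.0% and 56.2% against 43.5% and 44.7%).

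The 474 windows formed 27 clusters, joining windows at most 1000 bp apart, on 13 of the 19 autosomes. Clusters are named by chromosome, with a letter in order of position where a chromosome has several. Reads were very unevenly spread among them. The 3 highest windows held 33.1% and the 10 highest 62.9% of all pile-up reads. It took 7 windows to reach 50% and 42 to reach 90%. The median pile-up window had 8190.5 reads over the 4 libraries, against a median of 11 for all windows. All 474 windows had reads in each of the 4 libraries.

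The cluster on chromosome 2 (chr2:98662151-98667450) held 85.8% of the pile-up reads in 56 windows. It took 47.0% of all reads of naive replicate 1, 37.0% of naive replicate 2, 48.2% of peak replicate 1 and 38.9% of peak replicate 2. On the scaled values the naive libraries had 16241894 and 15689433 scaled reads and the peak libraries 17542485 and 11207452. Peak replicate 1 was the highest and peak replicate 2 the lowest of the 4, so the naive libraries lay between the peak libraries. No gene of the RefSeq table lies within 10 kb. The 10 windows on either side held no read in any library, and 40 of the 106 windows of its span were also empty. The reads sat in 4 blocks separated by these empty stretches. The last block (chr2:98666151-98667450) held 78.2% and the first (chr2:98662151-98663100) 21.2% of the reads of the span.

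Its highest window, at chr2:98667151-98667200, was also the highest of all listed windows. It had 1987542 and 1895358 reads in the naive libraries and 3134841 and 2022235 in the peak libraries, 9039976 in all. The next 2 windows by height adjoin it on either side, with 8999584 and 6177309 reads. The blocks did not have the same order of libraries. In the first block naive replicate 2 was highest (3874834 scaled reads, against 3609523 in naive replicate 1, 3285505 in peak replicate 1 and 2314305 in peak replicate 2). In the last block peak replicate 1 was highest (14138054 scaled reads, against 12547876, 11767035 and 8844058 in naive replicates 1 and 2 and peak replicate 2). Over the 56 windows the log2 scaled reads of any 2 libraries still correlated at 0.981 to 0.998. These windows are neighbours that share fragments, so the correlations are a description.

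**Figure D2:**
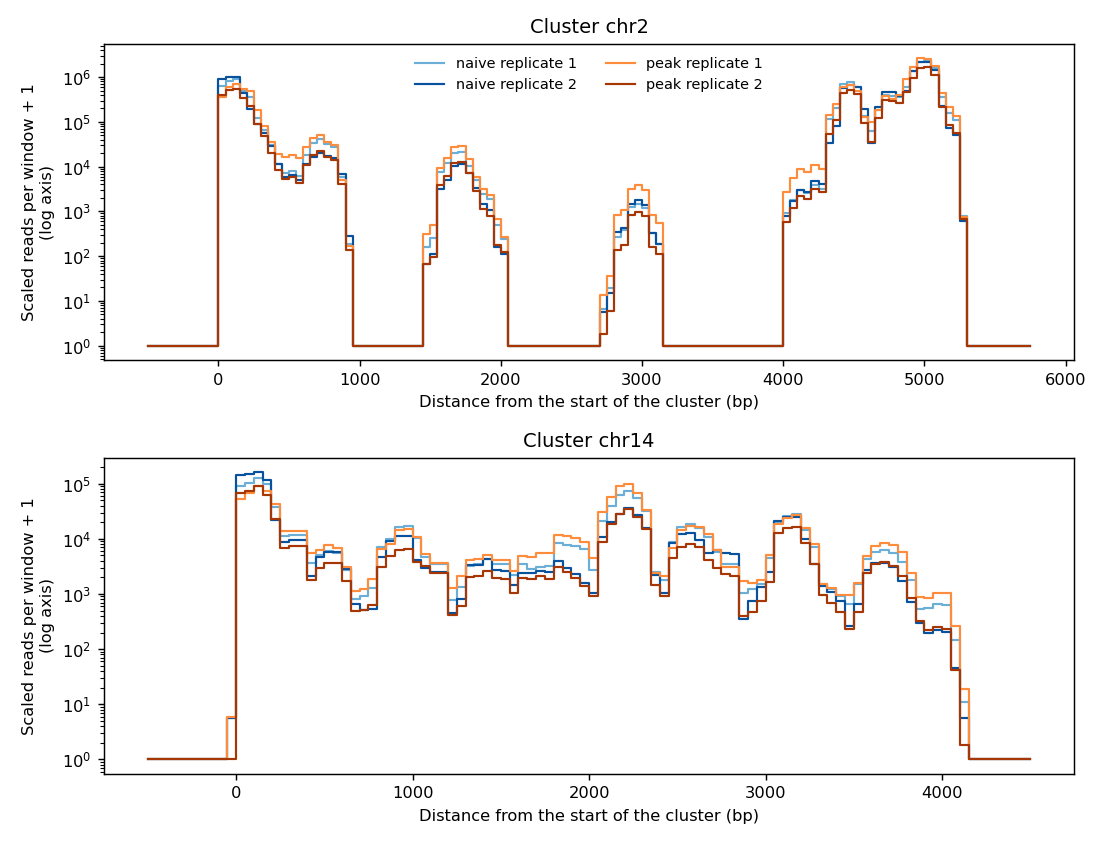
Scaled reads per 50 bp window plus 1 (vertical, log axis) along the chr2 and chr14 clusters (horizontal, bp from the cluster's start), 1 line per library. In chr2 the 4 blocks are separated by windows with no read in any library, and in chr14 the signal is continuous with repeated peaks.

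The chromosome 14 cluster (chr14:19415651-19419700) was next, with 80 windows and 5.71% of the pile-up reads. It had 1174537 and 1049269 scaled reads in the naive libraries and 1170578 and 670264 in the peak libraries. Both naive libraries and peak replicate 1 lay close together and peak replicate 2 was lower. No window of its span was empty, whereas 9 of 10 windows before it and 8 of 10 after it were. No gene of the table lies within 10 kb. Its profile rose and fell repeatedly. The autocorrelation of log2 reads along the span had a local maximum of 0.19 at 500 bp, a weak periodicity given as a description. Along the chromosome 17 cluster described below, it had a higher local maximum of 0.40 at 450 bp. The chromosome 2 cluster and the cluster chr9d had no positive local maximum at spacings up to 1000 bp. Its highest window (chr14:19415751-19415800) had 110812 and 139748 reads in naive and 108037 and 109740 in peak libraries.

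Chromosome 9 held 11 clusters, 9 of them in the first 38150 bp for which any window is listed (chr9:2999901-3038050). Mouse autosomes have their centromere at the start of the reference sequence, so these are the windows nearest to the chromosome 9 centromere. They comprise 170 of the 474 windows and 5.15% of the pile-up reads. Their sum was 1026079 and 845570 scaled reads in the naive libraries and 1123856 and 634218 in the peak libraries. Peak replicate 2 was the lowest library in all 9. Of the 763 windows of this stretch, 435 held a read, so the signal was broken by empty stretches as on chromosome 2.

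The largest of the 9 were chr9f (chr9:3024751-3030300, 48 windows, 2.06% of pile-up reads) and chr9a (chr9:2999901-3003100, 41 windows, 1.54%). The cluster chr9f had 413397 and 384647 scaled reads in naive and 410091 and 259676 in peak libraries. In chr9a the values were 303095 and 202676 in naive and 383106 and 180918 in peak libraries, so the order of the libraries differed between these clusters of 1 stretch. The autocorrelation of chr9a and of chr9h (chr9:3034201-3036600) had a local maximum at 850 bp, of 0.29 and 0.14. That of chr9f had maxima at 300 and 650 bp. Next by reads were chr9h, with 113589 and 99110 scaled reads in naive and 111358 and 65966 in peak libraries, chr9b (chr9:3004451-3006000), with 67499 and 66866 in naive and 61023 and 46255 in peak libraries, and chr9d (chr9:3017501-3020650), with 42456 and 34587 in naive and 53015 and 32148 in peak libraries. The highest window of chr9f was chr9:3025501-3025550 with 305932 reads, that of chr9a was chr9:3000101-3000150 with 85687 and that of chr9h was chr9:3036051-3036100 with 77941. No gene of the table overlaps these clusters. The microRNA gene Mir101c, at chr9:3038669-3038743, lies 618 bp beyond the last of them.

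Many pile-up windows lay near a chromosome start, most of them in the chromosome 9 stretch. Within 250000 bp of the first listed window of their chromosome lay 195 of the 474 windows (41.1%), against 0.180% of all listed windows, and 170 of the 195 were those of chromosome 9. They form 12 clusters on chromosomes 6, 9, 11 and 12, and hold 5.46% of the pile-up reads. The chromosome 2 cluster lies 95612100 bp from the first listed window of its chromosome and the chromosome 14 cluster 16383550 bp.

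The third cluster by reads, chr9k (chr9:35305101-35305600), lies far from the chromosome start, inside the gene of the long non-coding RNA Gm33838 (chr9:35285514-35307723). Its 10 windows held 2.24% of the pile-up reads. The naive libraries had 455062 and 343252 scaled reads and the peak libraries 536816 and 239064, so the naive libraries again lay between the peak libraries. Its highest window (chr9:35305251-35305300) had 255939 reads over the 4 libraries. The 10 windows before the cluster were empty.

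The chromosome 17 cluster was the longest in windows and the only one that overlaps a ribosomal gene model of the RefSeq table. It spans chr17:39843001-39848800 with 98 windows and covers Rn18s-rs5 (chr17:39846354-39848202), a gene model related to 18S rRNA and listed as a pseudogene, and the start of the long non-coding RNA gene AY036118 (chr17:39848112-39898385). It held 0.571% of the pile-up reads. Naive replicate 2 had 320993 scaled reads, naive replicate 1 had 21965, peak replicate 1 had 36429 and peak replicate 2 had 63293. Naive replicate 2 was 14.6-fold above naive replicate 1 and 8.81-fold above peak replicate 1, and the 2 naive libraries were the highest and the lowest of the 4. The mean was 171479 ± 211445 scaled reads (SD, n = 2) in naive and 49861 ± 18996 in peak cells, a difference smaller than the spread between the naive libraries (two-sided exact permutation p = 1).

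Signal along the ribosomal cluster was not even. The stretch before Rn18s-rs5 held 67.6% of the reads of the span, the gene model itself 19.3% and the 600 bp after it 13.1%. Within the gene model 23 of 37 windows passed the threshold, against 63 of 67 before it and 12 of 12 after it. Naive replicate 2 exceeded peak replicate 1 by 9.40-fold before the gene model, 5.33-fold within it and 10.3-fold after it. No window of the span was empty in all libraries. How reads that match several copies were placed is not stated by the labels or the files, so the cluster is uncertain as a position.

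The chromosome 13 cluster (chr13:119488851-119489100) lies in Tmem267, 328 bp beyond the downstream promoter printed above. Its 5 windows had 1958 and 7993 scaled reads in the naive libraries and 792 and 2557 in the peak libraries. Naive replicate 2 was 4.08-fold above naive replicate 1 and 10.1-fold above peak replicate 1. This order, with peak replicate 2 second and naive replicate 1 and peak replicate 1 low, was the order seen in the promoter itself and on chromosome 17 except for which library was lowest.

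The cluster chr11a (chr11:3192901-3193750) lies in Sfi1, a gene for a centrosomal protein, 92750 bp from the first listed window of chromosome 11. Its 17 windows had 38702 and 114808 scaled reads in naive and 15724 and 39621 in peak libraries. Here too naive replicate 2 was the highest library, 7.30-fold above the lowest.

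Most other clusters were short. Of the 27 clusters 14 had at most 5 windows, and together these held 44 windows and 0.232% of the pile-up reads. A gene of the RefSeq table overlaps 11 of the 27 clusters and none overlaps the other 16. Gene models found only in Ensembl were not placed, so these counts hold for RefSeq alone. The short clusters in genes are chr6b in Chl1 (a neural cell adhesion molecule), chr4 in Cdk5rap2 (a centrosomal protein), chr11b in the long non-coding RNA gene Gm36876, chr16b in Cmss1 and Filip1l, chr1 in Aida, chr5 in Cdk8 (a kinase of the Mediator complex) and chr16a in Zc3h7a. The 2 RefSeq gene models for nuclear copies of mitochondrial DNA that could be placed, Gm10222 and Gm10925 on chromosome 1, held no listed window in any library. The mitochondrial genome itself has no listed window, so organelle reads could not be counted directly.

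**Figure D3:**
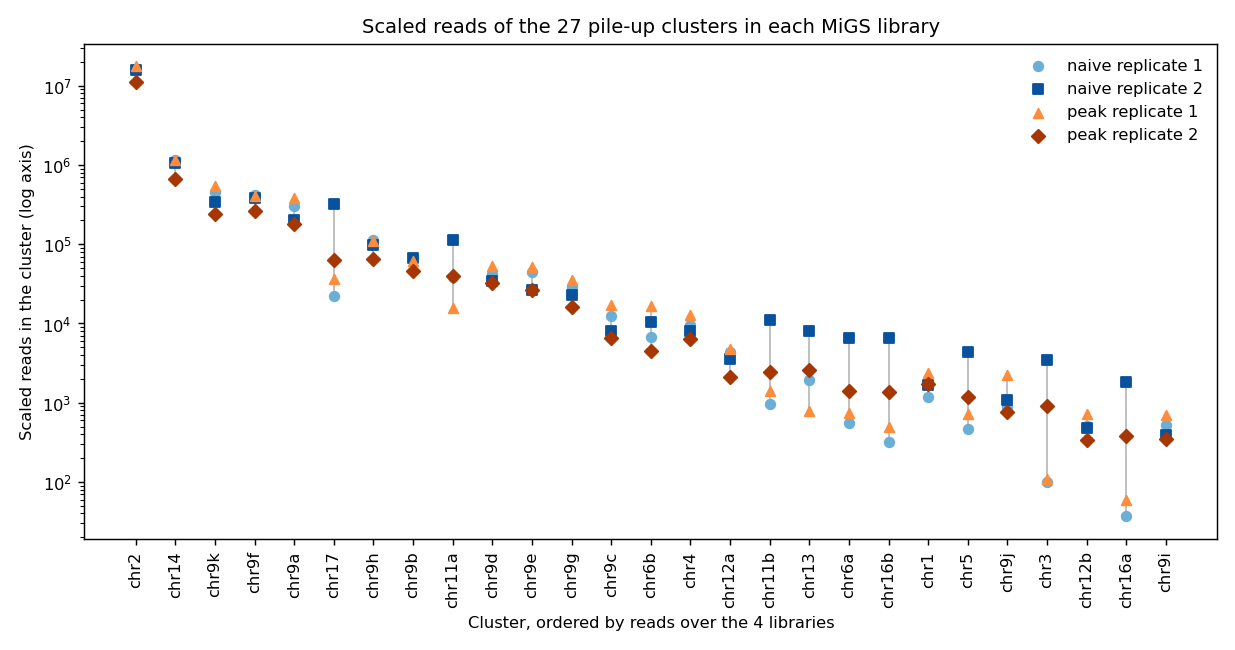
Scaled reads of each of the 27 clusters (vertical, log axis) in the 4 MiGS libraries, with clusters ordered by total reads and a grey line from the lowest to the highest library. In 9 clusters naive replicate 2 stands 7.30-fold to 48.6-fold above the lowest library, while in the other 18 the 4 libraries lie within 3.70-fold.

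The clusters fell into 2 sets by the library in which they were highest. Naive replicate 2 was highest in 9 clusters (chr17, chr11a, chr11b, chr13, chr6a, chr16b, chr5, chr3 and chr16a). In these the highest library exceeded the lowest by 7.30-fold to 48.6-fold, peak replicate 2 was second in all 9, and naive replicate 1 was lowest in 7 and peak replicate 1 in 2. In the other 18 clusters the highest library exceeded the lowest by 1.46-fold to 3.70-fold, with peak replicate 1 highest in 14 and naive replicate 1 in 4, and peak replicate 2 lowest in 17. No value of fold lay between 3.70 and 7.30. The same 9 clusters were highest in naive replicate 2 when libraries were scaled by all their reads, and when scaled by their reads outside the pile-ups.

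The sets also differed in size and place. Size was not independent of the grouping, because windows were chosen on reads summed over the 4 libraries. A small cluster could pass mainly through naive replicate 2. The single window of chr16a had 1569 of its 2138 reads there. With naive replicate 2 left out, and the threshold lowered in proportion to the libraries kept, the rule gave 408 windows in 22 clusters. With any other library left out in the same way it gave 464 to 497 windows in 25 to 28 clusters. The size and fold of the 9 clusters therefore follow partly from the rule. The 9 clusters held 137 windows and 0.924% of the pile-up reads, and overlapped a RefSeq gene in 7 cases. They took 1.13% of the reads of naive replicate 2 against 0.188% in naive replicate 1, 0.155% in peak replicate 1 and 0.393% in peak replicate 2. The other 18 held 337 windows and 99.1% of the pile-up reads, and overlapped a RefSeq gene in 4 cases. Of the 12 clusters near a chromosome start, 2 were among the 9 and 10 among the 18. These are counts without a test, since the sets were formed from the same libraries. The largest separation was at chr16a (chr16:11144101-11144150), a single window with 37 and 1822 scaled reads in naive and 60 and 378 in peak libraries.

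Windows outside the pile-ups also differed in library ratio, in an order that followed their level. The 936241 other windows with at least 20 reads were divided into 10 equal groups by scaled reads over the 4 libraries. The ratio of naive replicate 2 to peak replicate 1 rose through every group, from 0.356 in the lowest (mean of 4.80 scaled reads per window) to 1.08 in the sixth and 5.73 in the highest (mean of 50.4). In the highest 0.1% of these windows it was 4.02. The 9 clusters had ratios of 6.10 to 31.9, above that of the highest group. Each group's ratio comes from the summed reads of many windows, so single clusters and groups are not like for like. The other 18 had ratios of 0.462 to 1.10, within the range of the lower 7 groups (0.356 to 1.37), although their level was far higher. Level and ratio share the same reads, and the cause of these ratios was not tested.

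Within clusters the same ratio varied from window to window. Over the 98 windows of chr17 it ran from 2.78 to 25.4 and correlated with log2 reads at r = 0.755. Over the 56 windows of chr2 it ran from 0.235 to 2.48 (r = 0.55), and over the 80 windows of chr14 from 0.181 to 2.71. Height and ratio share the same reads and neighbouring windows share fragments, so these are descriptions. Over all 474 windows the log2 scaled reads correlated most closely between naive replicate 1 and peak replicate 1 (r = 0.984) and least between naive replicate 2 and peak replicate 1 (r = 0.750), with the naive libraries at 0.770 to each other.

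**Figure D4:**
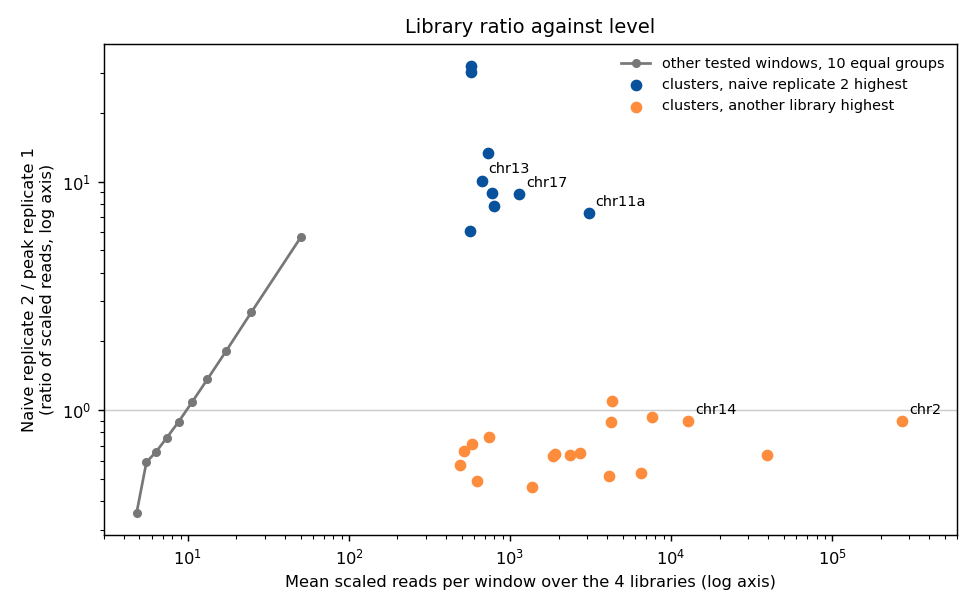
Ratio of scaled reads in naive replicate 2 to peak replicate 1 (vertical, log axis) against mean scaled reads per window over the 4 libraries (horizontal, log axis), for 10 equal groups of other windows (grey line) and for the 27 clusters (points). The grey line climbs from 0.356 to 5.73, the 9 clusters highest in naive replicate 2 lie above its end, and the other 18 lie between 0.462 and 1.10 at levels far to the right of it.

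Peak and naive cells were then compared window by window, to ask whether any pile-up changed with disease. No pile-up window passed in the fit without a replicate block: limma on log2(scaled reads + 1) called 0 of 474 at a Benjamini-Hochberg adjusted p under 0.05, and 0 of all 936715 windows tested (background 0%). At an unadjusted p under 0.05 limma gave 0 of the 474 and 42797 of all windows (4.57%). The edgeR quasi-likelihood test on recovered reads also called 0 at the adjusted threshold. The lowest limma adjusted p among the pile-ups was 0.835. The median log2 change (peak minus naive) was -0.14 over the pile-ups, with 171 windows positive and 303 negative, against -0.09 over all windows tested, of which 54.2% were negative. That sign turned with scaling, to 0.10 with libraries scaled by all their reads and 0.13 with libraries scaled by their reads outside the pile-ups. The variance trend of the model gave these very high windows standard errors of 1.65 to 22.5 (median 2.87) on the log2 scale, while the spread between their own replicates had a median SD of 0.769, so this test says little about them. Without the trend the standard errors were 0.643 to 1.56, the lowest adjusted p over all windows was 0.790, and limma also called 0. The result depended on the block, although no label says that the replicate numbers mark pairs. With it limma called 104 and edgeR 9 of the 474 windows lower at peak, and 0 higher. Of all windows tested 7.22% and 4.93% were then called lower.

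The pile-up windows with the smallest p in the limma fit without the block were small ones. None came near the threshold, with unadjusted limma p of 0.417 or more. Their standard errors were below the median of 2.87 over the pile-ups, so this order depends on the variance trend as well as on the change. Among the windows lower at peak, the 3 with the smallest p were adjoining windows of chr13 in Tmem267. The window at chr13:119488951-119489000 had 391 and 1824 reads in naive libraries and 197 and 694 at peak, so the groups overlapped (log2 change -1.67, SE 2.03, limma adjusted p = 0.835). The others were chr13:119488901-119488950 and chr13:119488851-119488900, with log2 changes of -1.61 and -1.40. Among the windows higher at peak, those with the smallest p were chr9:3028701-3028750 and 2 adjoining windows of chr1 in Aida. The window at chr1:183299401-183299450 had 384 and 519 reads in naive libraries and 1056 and 793 at peak, without overlap (log2 change 0.55, SE 2.08, limma adjusted p = 0.949). Its neighbour at chr1:183299451-183299500 had a log2 change of 0.52.

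Counts of windows whose groups did not overlap gave no excess either way. Both peak libraries lay above both naive libraries in 3 of the 474 windows, while 16.8% of all tested windows did so. Both lay below in 50 (10.5%), while 18.7% of all tested windows did so. On scaled reads 2 of the 27 clusters had groups that did not overlap. One was chr9b, lower at peak, with 67499 and 66866 scaled reads in naive and 61023 and 46255 in peak libraries. The other was chr1 (chr1:183299351-183299500) in Aida, higher at peak, with 1194 and 1680 in naive and 2356 and 1739 in peak libraries. On the share of library reads chr9b overlapped, while chr1 and chr9j (chr9:24542051-24542150) did not. Every cluster's two-sided exact permutation p on that share was 0.333 or more, and 1 after adjustment over the 27.

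The threshold cut through a continuous range of small windows. The windows just inside it had 2011 reads (chr13:119488851-119488900), 2031 (chr3:5860651-5860700) and 2033 (chr13:119489051-119489100). The windows just outside had 1978 (chr9:3026851-3026900), 1962 (chr9:3034151-3034200) and 1957 (chr9:3006001-3006050), and all 3 lie within the chromosome 9 stretch.

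RNA from the same sorted cells was compared at the genes of these regions, with 31282093 naive and 36561934 peak counts. Each condition has 1 RNA library, so no difference has a replicate check or a p-value, and in such bulk samples fewer cells of a type and less RNA per cell cannot be told apart. Intervals are exact (Clopper-Pearson) 95% intervals of the ratio and cover counting error only. Of the 13 RefSeq genes that overlap a cluster, 11 are in the RNA table and 10 had at least 50 counts. None of the 10 was at least 2-fold higher in the peak library (11.6% of all genes measured were), and 2 were at least 2-fold lower (9.35% of all genes were). Those 2 were Chl1, with 115 naive and 37 peak counts (3.38-fold lower, interval 2.34 to 5.09), and Filip1l, with 3151 and 1583 counts (2.19-fold lower, interval 2.06 to 2.33). Cmss1, which shares its cluster with Filip1l, had 67 and 147 counts (1.99-fold higher, interval 1.49 to 2.71). Of the 11 genes within 10 kb of a cluster but outside it, 8 are in the table and 4 had at least 50 counts (Brox, Eif4enif1, 4833420G17Rik and Txndc11), and none of the 4 reached 2-fold either way. Tmem267 had 50 and 32 counts, and Aida 556 and 1148 counts (1.88-fold higher, interval 1.70 to 2.08).

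Gene models that lie among repeats were listed with few RNA counts, apart from Rn18s-rs5. How RNA reads that match several places were counted is not stated, so these values do not measure transcription of the repeats. The 13 gene models of the satellite list, Ensembl models such as Gm10800 and Gm10715 that are known to sit in satellite-rich stretches, were all in the RNA table, and 12 of the 13 had 0 counts in both libraries. The exception, Gm11168, had 0 naive and 1 peak count. AY036118, in the ribosomal cluster, also had 0 in both. A count of 0 allows up to 3 counts of a library's total. The 7 models of nuclear mitochondrial copies had 6 naive and 12 peak counts in all. Rn18s-rs5, listed in the RNA table under its synonym Gm42418, had 25346 naive and 44972 peak counts (1.61-fold higher, interval 1.59 to 1.64). The RNA kit removes rRNA, so this count depends on how completely that step worked in each library, which was not tested.

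A last list of genes covers proteins of heterochromatin and of the centromere, and proteins that write or bind DNA methylation. Of the 26 genes of that list 23 are in the RNA table, all with at least 50 counts. In the peak library 9 of the 23 reached 2-fold higher (11.6% of all genes measured did) and 0 reached 2-fold lower (9.35% of all genes did), with a median log2 ratio of 0.67 against -0.0027 over all genes measured. Uhrf1, which binds hemimethylated DNA and guides the maintenance methyltransferase, had 79 counts in the naive and 1993 in the peak library (22.8-fold higher, 18.3 to 29.1). Hells, a chromatin remodeller needed for methylation of repeats, had 77 and 989 counts (11.6-fold, interval 9.26 to 14.9). The centromeric histone gene Cenpa had 120 and 1216 counts (9.19-fold), and the chromosomal passenger gene Incenp 435 and 1919 (4.01-fold). Cbx5, which encodes heterochromatin protein 1 alpha, was 2.998-fold higher, the histone methyltransferase gene Suv39h2 3.09-fold, the methyl-CpG binding gene Mbd2 2.35-fold, the satellite binding gene Cenpb 2.25-fold and the histone chaperone gene Daxx 2.03-fold. Among the DNA methyltransferase genes Dnmt1 had 2214 and 4460 counts (1.83-fold higher, interval 1.74 to 1.93), Dnmt3a 6525 and 7608, and Dnmt3b 209 and 224. Some genes of the list were lower at peak. The histone methyltransferase genes Kmt5b, Kmt5c and Setdb1 were lower by 1.52-fold, 1.49-fold and 1.33-fold.

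Markers of other cells moved in the same RNA libraries. Of all genes measured, 11.6% were at least 2-fold higher at peak and 9.35% at least 2-fold lower. All 10 microglial markers were measured, from 6648 counts (Aif1) upward in the naive library. Of these 2, P2ry12 and Fcrls, were at least 2-fold lower at peak. Siglech (1.91-fold), Cx3cr1 (1.90-fold) and Tmem119 (1.88-fold) were lower by just under 2-fold. Aif1 alone was higher, by 1.73-fold. Of 5 monocyte markers 4 were at least 2-fold higher, and the 5 summed to 1449 naive and 38220 peak counts, with none at 0. The 4 T cell markers summed to 61 and 184 counts, with Cd4 at 61 and 152 (2.26-fold higher), Cd3g at 0 and 21, Cd8a at 0 and 9 and Cd3e at 0 and 2. B cell markers summed to 5 and 9 counts. All 3 endothelial markers were at least 2-fold lower at peak (Cldn5 2.02-fold, Pecam1 2.29-fold and Tek 2.86-fold). Of the astrocyte markers Aqp4 was 2.64-fold lower, Slc1a3 1.67-fold lower and Gfap 2.63-fold higher. The neutrophil markers were mixed, with Ngp 2.39-fold lower, S100a8 1.49-fold higher and S100a9 1.05-fold higher. Together the neutrophil markers summed to 474 naive and 556 peak counts. No oligodendrocyte or neuron marker with at least 50 counts reached 2-fold. The part of these cells in the heterochromatin gene values was not tested.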

How the data were processed

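MiGS was measured in 2 naive and 2 peak libraries and RNA-seq in 1 library of each. The tools named in the submitters' processing notes are Bowtie2, TopHat, featureCounts and edgeR, with mm10 as the build, and no role or version is stated. The authors deposited the MiGS data as a signal value per 50 bp window. 100% of values were whole multiples of the smallest value of their file within 0.001, so reads were recovered by dividing by it, and a window absent from a library was taken as 0 reads. The windows listed lay on the 19 autosomes only. No window of a sex chromosome or of the mitochondrial genome was among them. For RNA the authors deposited raw counts per gene, per the file headers, and FPKM values of their own, per the file headers, which were not used.

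Windows with over 2000 recovered reads over the 4 libraries, at most 1000 bp apart, were joined to clusters. Genes and promoters (300 bp) came from RefSeq (GRCm38.p6); exons and introns were not resolved. The design named a limma test on log2(deposited value + 1) with a variance trend (limma 3.58.1, R 4.3.3) over windows with at least 20 reads, with Benjamini-Hochberg adjustment over all of them at 0.05. The edgeR quasi-likelihood test (edgeR 4.0.16) on recovered reads was an alternative. Both tests were checked on simulated data with less spread between libraries than these have, which does not cover the pile-ups. RNA counts were scaled by TMM over genes with at least 50 counts, and the ratio of scaled counts used 0.5 added to each count. Other tools were DESeq2 1.42.0 (size factors), Python 3.11.15, pandas 2.3.3 and matplotlib 3.10.9. The alternatives tried were other thresholds, joining distances, scalings, pseudocounts, read minimums, tests, a replicate block and leaving out each library.

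The 10 clusters with the most reads are given with every library's value. Also named are the 3 windows on either side of the threshold, the windows with the 3 smallest p in each direction, and the genes in or within 10 kb of a cluster. The windows and the lists were chosen with earlier results of these data known.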

Additional observations from a re-analysis of the deposited data

How the results depend on the processing

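The number of pile-up windows was 593 with a threshold of 1000 reads, 308 with 5000 and 307 with over 500 reads in each library. It was 408 to 497 when each library was left out in turn, with the threshold lowered in proportion to the libraries kept. The number of clusters was 63 when only touching windows were joined and 15 with over 500 reads in each library (22 to 28 leaving out each library). Naive replicate 2 was highest in 3 clusters with a threshold of 5000 reads and in 20 with only touching windows joined. Peak replicate 1 was highest in 38 with only touching windows joined and in 9 with windows up to 10000 bp apart joined. The difference in share between peak and naive turned to -0.283 percentage points without the chr2 cluster, and ran from -4.52 to 7.00 when each library was left out, negative without naive replicate 2 and without peak replicate 1.

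The libraries share the numbers 1 and 2 across conditions, which nothing in the labels says pairs them. The share difference with the replicate block was 1.24 percentage points (1.26 and 1.23 within the pairs). Deviations of same-numbered libraries correlated at 0.398 over all windows tested and 0.870 over the pile-ups, from 2 pairs only. With the block, limma called 104 and edgeR 9 pile-up windows lower and 0 higher, where 7.22% and 4.93% of all windows were called lower. In limma with at least 50 reads per window 2 pile-up windows were called higher and 12 lower, at standard errors down to 0.00783 (the lowest in the reported test was 1.65), and 0.000544% and 0.00435% of all windows were called. The cause was not tested. With the minimum of 20 reads, limma without a variance trend, added after seeing the data, called 0. No pile-up window was called under the other settings of pseudocount, minimum and scaling, by edgeR without the block, or without any 1 library. The median log2 change was 0.10 and 0.13 with libraries scaled by all reads and by reads outside the pile-ups, 0.11 with edgeR's TMM and 0.03 with edgeR and the replicate block, and ran from -0.51 (without peak replicate 1) to 0.27 (without peak replicate 2). With DESeq2 size factors 1 gene in or beside a cluster, Cmss1, was at least 2-fold higher.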

Other observations

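Below the threshold of 2000 reads lay 6 further runs of windows with over 1000 reads and no pile-up window. Naive replicate 2 was highest in chr11:3101651-3101850 (1695 and 2372 scaled reads in the naive, 855.3 and 1164 in the peak libraries), in chr12:20234101-20234250 (759.5 and 2059 against 236.0 and 770.0) and in a single window at chr18:68692101-68692150, in Gm30821 (64.7 and 787 against 123 and 185). Peak replicate 1 was highest in chr13:77438951-77439100, in the gene model 2210408I21Rik (1206 and 613.3 against 1866 and 576.4), in chr16:10975051-10975150, in Litaf (591.5 and 404.2 against 942.3 and 336.4), and in chr15:75086651-75086750 (330.4 and 128.9 against 1015 and 394.4). These runs were looked at after the values were seen.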
